A study of Mus musculus with 6 samples.

Results

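The MYC, MAX and MXD network was followed through 10 genes chosen by symbol: Myc, Mycn, Mycl, Max, Mxd1, Mxi1, Mxd3, Mxd4, Mnt and Mga. Each was found once among the 21978 entries of the deposited tables, and all 10 passed the expression filter that left 16498 genes for testing. The rule names the genes by symbol and uses no measured value, but the genes were chosen with earlier results of these data known.

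Oligo-dT-selected RNA had been sequenced from mouse embryonic stem cells, giving 6 libraries, 2 for each of 3 groups. E518K cells (clones 8 and 15, genotype label DGCR8 E518K/E518K) had been transfected with the vector pSB ET iE-FlagDGCR8-E518K for a Flag-tagged DGCR8 with that substitution, together with the transposase plasmid pCMV(CAT)-SB100X. KO cells (libraries 1 and 3, genotype label DGCR8 -/-) were not transfected, and both titles carry the same clone number. The wt cells (clones 12 and 16, genotype label DGCR8 wt/wt) carried pSB ET iE-FlagDGCR8-wt in place of the substituted vector, with the same transposase plasmid. Doxycycline at 300 ng/mL was given to every group for 48 h. Culture was feeder-free, in serum medium that held LIF, the GSK3 inhibitor CHIR99021 and the MEK inhibitor PD0325901. DGCR8 binds primary miRNA transcripts and holds them for cutting by the nuclease Drosha, so the comparisons ask how the network differs without this protein and with the substituted one. In both comparisons with KO, the lack of DGCR8 cannot be told apart from the lack of transfection or from the choice of clone. The libraries of E518K and wt came from 2 clones each, whereas nothing in the labels says that the KO libraries were separate cultures, so the spread within KO may be technical.

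MYC proteins are basic helix-loop-helix leucine zipper transcription factors that bind the E-box CACGTG as dimers with MAX and activate genes of growth, nucleotide supply and ribosome production. The MXD proteins and MNT compete for MAX, bind the same sites and recruit the SIN3 co-repressor with histone deacetylases. MGA carries a T-box domain beside its helix-loop-helix domain and is a subunit of a variant Polycomb complex, PRC1.6, that keeps germline genes silent in embryonic stem cells. MYC proteins sustain self-renewal of these cells. From earlier work in Dgcr8-null mouse embryonic stem cells, miRNAs of the miR-290 family are known to raise Myc indirectly, and let-7 to oppose this. MYCN and MAX are among the genes altered in human Wilms tumours.

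The sequences below were chosen because the results turn on Mycn, Mycl, Mxd1, Mxd4 and Mga, and they show which miRNA seeds have a match in the transcripts of these genes. miRNA levels were not analysed here. The mature miRNAs are from RefSeq (GRCm38.p6), with the seed, bases 2 to 8, in capitals.
mmu-miR-294-3p: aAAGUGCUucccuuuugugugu
mmu-miR-17-5p: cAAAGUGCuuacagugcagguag
mmu-let-7a-5p: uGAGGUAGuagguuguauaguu
mmu-miR-19b-3p: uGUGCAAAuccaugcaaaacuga
mmu-miR-34a-5p: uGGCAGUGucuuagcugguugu

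Among the RefSeq entries used here, the seed of miR-294 was found also in miR-291a, miR-295, miR-302b and miR-302d, which may not be all miRNAs that carry it. The miR-17 seed, shared with miR-20a and miR-93, has 6 of its 7 letters in common with the miR-294 seed, shifted by 1 base. The complement of the miR-294 seed, AGCACTT, was present in the longest annotated 3′ UTR of 6 of the 10 genes (Mycn, Mxd1, Mxi1, Mxd3, Mnt and Mga), against 16.1% of 18926 genes with a 3′ UTR of at least 20 bases. The median length of these UTRs was 2187.5 bases in the network and 1173 bases over all genes, and a longer UTR holds more matches. Mga had 3 such matches and Mxi1 had 2. Myc and Max had a match to none of the 6 seeds searched, which included that of miR-92a. The let-7 complement CTACCTC was found in 1 gene, Mxd1, against 10.6% of all genes. Complements of the miR-19 seed (TTTGCAC) were present in 5 genes, against 12.1%, those of miR-34a (CACTGCC) in 4, against 16.3%, and those of miR-17 (GCACTTT) in 4, against 12.9%. A selection of matches in the genes that the results turn on is shown on the transcript strand (GENCODE M21, GRCm38), with the complement of the seed in capitals and the coordinates of those 7 bases. Not shown are matches to miR-34 and miR-17 in Mycn and, in Mga, 2 further matches to miR-294 and 1 each to miR-17 and miR-19.
Mycn, miR-294 (chr12:12936140-12936146, minus strand): agtgctgcaccttagAGCACTTtga
Mycn, miR-19 (chr12:12936970-12936976, minus strand): gacagtcactgccacTTTGCACatt
Mycl, miR-19 (chr4:123000589-123000595, plus strand): tctcccttttagtaaTTTGCACatt
Mxd1, let-7 (chr6:86650230-86650236, minus strand): ctctggaacattgtcCTACCTCaga
Mxd1, miR-294 (chr6:86648922-86648928, minus strand): tctctgtattcttagAGCACTTgac
Mxd4, miR-34 (chr5:34175631-34175637, minus strand): ttgtctcaccccaccCACTGCCacc
Mxd4, miR-19 (chr5:34174553-34174559, minus strand): tcctgctctctaccaTTTGCACagt
Mga, miR-294 (chr2:119965450-119965456, plus strand): cacacttgtaattccAGCACTTaga

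In Mycn the miR-17 complement lies 1 base further on and overlaps the miR-294 complement, so the same stretch of the transcript matches both seeds. A match is a description of the letters and does not show that a miRNA acts there.

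The E-box CACGTG, which reads the same on both strands, was searched in windows from 250 bases before to 50 bases after each annotated start (RefSeq, GRCm38.p6). Myc had no window there, so its promoter was not searched, and Mxi1 had several. The E-box was present in 3 of 11 windows of the other 9 network genes, those of Mxd4, Mnt and Max, against 7.15% of 32851 windows of all genes. It began 219 bases before the start in Mxd4, 123 bases before it in Mnt and 3 bases before it in Max. The windows of Mxd4 and Mycl are shown because these genes had the largest fold changes among the repressors and among the MYC genes, with the E-box of Mxd4 in capitals.
Mxd4 (chr5:34187661-34187960, minus strand): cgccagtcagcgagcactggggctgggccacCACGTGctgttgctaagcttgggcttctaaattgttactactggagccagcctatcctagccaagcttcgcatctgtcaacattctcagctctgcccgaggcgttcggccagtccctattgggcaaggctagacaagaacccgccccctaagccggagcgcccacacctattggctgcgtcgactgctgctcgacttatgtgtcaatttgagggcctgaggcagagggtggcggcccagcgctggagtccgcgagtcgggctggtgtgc
Mycl (chr4:122995681-122995980, plus strand): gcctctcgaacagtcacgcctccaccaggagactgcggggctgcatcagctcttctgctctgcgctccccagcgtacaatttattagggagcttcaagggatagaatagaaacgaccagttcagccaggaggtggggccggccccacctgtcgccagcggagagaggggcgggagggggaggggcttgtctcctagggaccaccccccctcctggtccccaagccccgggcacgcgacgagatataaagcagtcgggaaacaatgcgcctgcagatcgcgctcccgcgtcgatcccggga

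Library totals ranged from 73642784 to 75121971 counts. Dgcr8, measured as a check of the labels, had 821 and 420 CPM (counts relative to the library total, scaled with TMM factors) in E518K, 40.0 and 37.1 CPM in KO and 196 and 992 CPM in wt. KO was the lowest, as its label says, and the E518K values lay between those of the wt clones. The summed level of 7 embryonic stem cell markers, Pou5f1 and Nanog among them, was 4350 and 4360 CPM in E518K, 3970 and 3900 CPM in KO and 4600 and 4230 CPM in wt. Of the 7, 5 fell and 1 (Tfcp2l1) rose in KO against wt, where 29.7% and 27.4% of all genes did. Relative to KO, 3 rose in E518K and 1 (Tfcp2l1) fell, where 22.0% and 19.8% of all genes did. Over all 6 libraries, 5 primitive endoderm markers summed to between 1.89 and 4.08 CPM and 5 fibroblast markers to between 3.70 and 6.23 CPM. Neural markers, 4 in all, summed to between 12.2 and 15.3 CPM, mostly Nes. Pax6 among them differed by group, with 1.17 and 1.37 CPM in E518K, 2.59 and 2.76 CPM in KO and 0.110 and 0.406 CPM in wt, and rose against wt in E518K and KO (edgeR adjusted p = 0.0182 and 0.00115). Sox1 was instead lowest in KO, with 3.58 and 5.24 CPM in E518K, 1.81 and 2.31 CPM in KO and 3.97 and 2.84 CPM in wt. Sox1 rose in E518K against KO (edgeR adjusted p = 0.0169), so the neural markers did not share a direction. The 5 blood and immune markers summed to between 285 and 305 CPM, nearly all of it Laptm5. Cd3e among them had 8.44 and 9.34 CPM in E518K, 9.07 and 8.96 CPM in KO and 2.04 and 2.70 CPM in wt, and rose against wt in E518K and KO (edgeR adjusted p = 0.00149 and 0.000172), whereas Cd79a fell in both and Itgam fell in KO. The sum of 5 mesoderm and primitive streak markers was 32.2 and 30.7 CPM in E518K, 15.4 and 16.9 CPM in KO and 27.7 and 31.0 CPM in wt. Most of it was Eomes, with 28.7 and 27.9 CPM in E518K, 13.7 and 14.4 CPM in KO and 25.5 and 28.7 CPM in wt, and of the 3 tested markers it alone passed in KO against wt. The 4 trophectoderm markers had 24.8 and 19.8 CPM in E518K, 41.7 and 44.5 CPM in KO and 39.6 and 26.9 CPM in wt, mostly Tfap2c. Tfap2c and Krt18 fell in E518K against wt (edgeR adjusted p = 0.0355 and 0.01), whereas Cdx2 rose there (edgeR adjusted p = 0.0333). Cdx2 had 3.72 and 3.50 CPM in E518K, 1.89 and 2.07 CPM in KO and 1.63 and 0.514 CPM in wt. These genes were singled out after their values were seen. Their part in the results below was not tested. In such bulk samples, fewer cells with a transcript and less RNA per cell cannot be told apart.

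The 3 MYC genes differed between the groups in different ways. In KO cells Mycl and Myc fell and Mycn rose against wt, so that nearly all MYC family signal came from Mycn. E518K cells had more Myc and more Mycn than wt cells and less Mycl. Against KO cells, E518K cells had far more Mycl and Myc and slightly less Mycn.

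Mycl (ENSMUSG00000028654.13, chromosome 4, 122995652 to 123002485, plus strand) encodes L-MYC, the family member first found amplified in lung cancer. It had 30.0 and 26.7 CPM in E518K, 2.47 and 2.18 CPM in KO and 55.6 and 55.3 CPM in wt. The 3 groups did not overlap, with KO far below the others and E518K between KO and wt. KO cells stood at a log2 fold change of -4.57 ± 0.12 (SE) relative to wt (edgeR adjusted p = 4.54e-06), and E518K cells at 3.61 ± 0.11 relative to KO (edgeR adjusted p = 6.34e-05). By size, these ranked 92 and 55 among 16498 genes. E518K cells stood at -0.97 ± 0.10 relative to wt (edgeR adjusted p = 0.00176), a level 0.512 times that of wt.

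Myc (ENSMUSG00000022346.15, chromosome 15, 61985391 to 61990374, plus strand) encodes c-MYC. Its level was 23.9 and 28.4 CPM in E518K, 4.47 and 4.90 CPM in KO and 16.9 and 14.8 CPM in wt. KO was the lowest group and E518K the highest, with no overlap. On the log2 scale Myc fell by 1.76 ± 0.14 in KO relative to wt (edgeR adjusted p = 9.63e-05), and it rose by 2.48 ± 0.14 in E518K against KO (edgeR adjusted p = 9.61e-05), a factor of 5.57. The rise of 0.72 ± 0.13 in E518K against wt also passed (edgeR adjusted p = 0.0101), but without E518K clone 15 it was 0.60 and the call was lost (edgeR adjusted p = 0.0886).

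Mycn (ENSMUSG00000037169.15, chromosome 12, 12936093 to 12941914, minus strand) encodes N-MYC, the member amplified in neuroblastoma. It had 165 and 153 CPM in E518K, 193 and 185 CPM in KO and 84.2 and 86.7 CPM in wt. Both KO and both E518K libraries lay above the wt libraries. Relative to wt, the log2 fold change was 0.89 ± 0.07 for E518K (edgeR adjusted p = 0.00078) and 1.15 ± 0.07 for KO (edgeR adjusted p = 3.62e-05). E518K stood slightly below KO, at -0.25 ± 0.07 (edgeR adjusted p = 0.0194). That last call was lost without E518K clone 15, KO library 1 or KO library 3 (-0.18, -0.22 and -0.28; edgeR adjusted p = 0.134, 0.188 and 0.104), as it was with the KO libraries summed into 1 (edgeR adjusted p = 0.134).

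**Figure D1:**
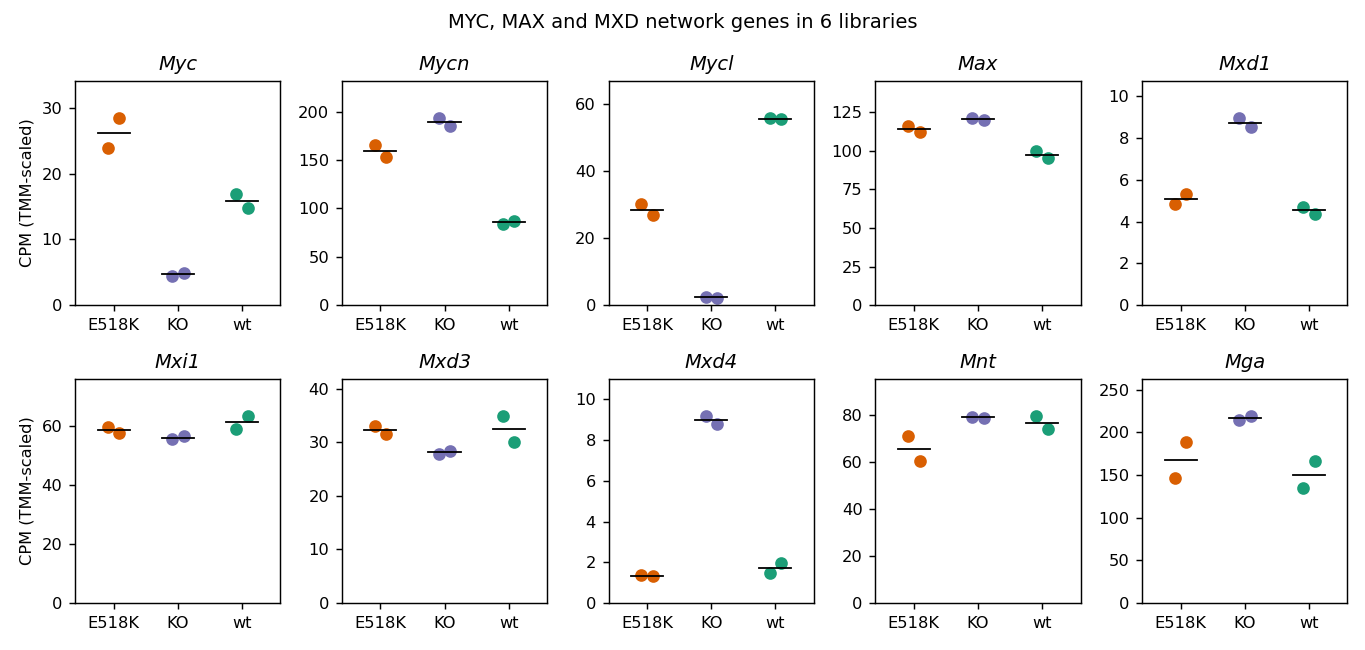
Level of each network gene in CPM (vertical axis from 0, TMM-scaled) in the E518K, KO and wt groups; points are libraries and bars are the means of 2. Mycl lies between 2.18 and 2.47 CPM in KO and at 55.6 and 55.3 CPM in wt, and Mxd4 is high in both KO libraries, at 9.18 and 8.79 CPM.

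Levels of different genes were compared per length, as CPM per kb of exon, here without TMM factors. On this scale the 3 MYC genes summed to 64.5 and 61.9 in E518K, 63.4 and 61.0 in KO and 44.0 and 45.6 in wt. With TMM factors and no division by length, the sums were 219 and 208 CPM in E518K, 200 and 192 CPM in KO and 157 and 157 CPM in wt. E518K then stood above KO without overlap. The shares that follow are again per kb of exon. Mycn made up 75.5% and 73.1% of the sum in E518K, 96.3% and 96.0% in KO and 56.1% and 57.9% in wt. The share of Mycl was 11.2% and 10.4% in E518K, 1.01% and 0.922% in KO and 30.2% and 30.1% in wt. That of Myc was 13.3% and 16.5% in E518K, 2.71% and 3.08% in KO and 13.7% and 12.0% in wt. In the authors' TPM, which divide by the genomic span, Mycn had 75.5% and 73.2% of the sum in E518K, 96.3% and 96.1% in KO and 55.7% and 57.4% in wt. Both length scales gave Mycn as the main member in every library.

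**Figure D2:**
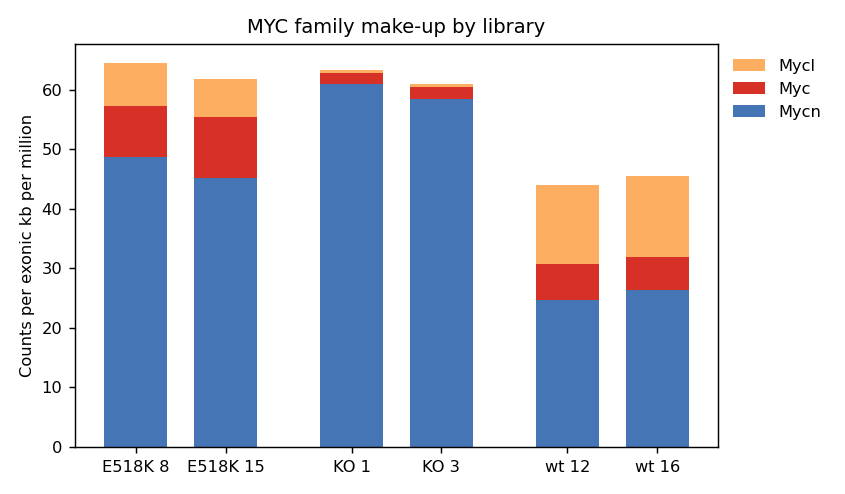
Level in CPM per exonic kb, without TMM factors (vertical axis), of Mycn, Myc and Mycl, stacked, in each library. The sum is between 61.0 and 64.5 in the E518K and KO libraries and 44.0 and 45.6 in the wt libraries, and Mycl is nearly absent from the KO bars.

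Max (ENSMUSG00000059436.13, chromosome 12, 76937269 to 76962201, minus strand), the partner that every MYC and MXD protein needs to bind DNA, differed little. It had 116 and 112 CPM in E518K, 121 and 120 CPM in KO and 100 and 95.2 CPM in wt. Both wt libraries were the lowest. Relative to wt, E518K stood higher by a log2 fold change of 0.22 ± 0.06 (edgeR adjusted p = 0.0432) and KO by 0.30 ± 0.06 (edgeR adjusted p = 0.00492). E518K stood at -0.09 ± 0.06 against KO (edgeR adjusted p = 0.297), while limma on log2(TPM + 1) gave -0.19 and a call (limma adjusted p = 0.0296). The call in KO was lost without KO library 1 or 3 (edgeR adjusted p = 0.0601 and 0.0535). That in E518K against wt was lost without E518K clone 8 or 15 (edgeR adjusted p = 0.166 and 0.122) or without either KO library (edgeR adjusted p = 0.138 for each). With upper-quartile factors in place of TMM factors it was 0.17 (edgeR adjusted p = 0.0835).

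Among the MXD repressors, Mxd4 and Mxd1 rose in KO, while Mxi1 and Mxd3 did not pass. Mxd4 (ENSMUSG00000037235.13, chromosome 5, 34173883 to 34187720, minus strand) had 1.39 and 1.30 CPM in E518K, 9.18 and 8.79 CPM in KO and 1.46 and 1.97 CPM in wt. Its counts were 100 and 95 in E518K and 710 and 678 in KO, with no more than 146 in wt, so only the KO libraries were high. KO exceeded wt by a log2 fold change of 2.39 ± 0.20 (edgeR adjusted p = 0.000131), and E518K stood at -2.74 ± 0.21 relative to KO (edgeR adjusted p = 0.000231). Between E518K and wt it was -0.35 ± 0.21 (edgeR adjusted p = 0.252), and without wt clone 12 it was -0.55 (edgeR adjusted p = 0.049).

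Mxd1 (ENSMUSG00000001156.9, chromosome 6, 86647042 to 86669161, minus strand), known for its rise when blood and epithelial cells differentiate, had 4.83 and 5.32 CPM in E518K, 8.95 and 8.52 CPM in KO and 4.72 and 4.38 CPM in wt. Only the KO libraries stood apart by more than the spread within groups. The rise in KO against wt was 0.94 ± 0.14 (edgeR adjusted p = 0.0014). E518K fell by 0.78 ± 0.14 against KO (edgeR adjusted p = 0.00466), a call that was lost without KO library 1 (-0.74, edgeR adjusted p = 0.0642) and with the KO libraries summed (edgeR adjusted p = 0.0541). E518K and wt differed by 0.16 ± 0.15 (edgeR adjusted p = 0.46).

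Mxi1 (ENSMUSG00000025025.14, chromosome 19, 53310518 to 53375810, plus strand) had 59.7 and 57.8 CPM in E518K, 55.6 and 56.6 CPM in KO and 59.1 and 63.4 CPM in wt. None of its 3 fold changes passed, and the largest was -0.13 ± 0.07 in KO against wt (edgeR adjusted p = 0.157), which passed without wt clone 12 at -0.18 (edgeR adjusted p = 0.0349). The others were 0.07 ± 0.07 in E518K against KO and -0.06 ± 0.07 in E518K against wt (edgeR adjusted p = 0.47 and 0.563). Mxd3 (ENSMUSG00000021485.14, chromosome 13, 55325168 to 55329823, minus strand), known as the MXD member of cycling cells, had 33.0 and 31.6 CPM in E518K, 27.9 and 28.4 CPM in KO and 34.9 and 30.0 CPM in wt. The KO libraries were the lowest, but the fold changes of -0.20 ± 0.10 in KO against wt and 0.20 ± 0.10 in E518K against KO did not pass (edgeR adjusted p = 0.106 and 0.139). The first passed without wt clone 16 (-0.31, edgeR adjusted p = 0.00561), and with upper-quartile factors (-0.26, edgeR adjusted p = 0.0408). The second passed without wt clone 12 or 16 (edgeR adjusted p = 0.0232 and 0.0218). E518K and wt differed by -0.01 ± 0.10 (edgeR adjusted p = 0.967). The span of Mxd3 shares 105 bases with that of Prelid1 on the other strand, and Prelid1 had 207 to 381 CPM, and whether the counting used strand is not given in the sources, so reads of both genes may not be told apart there. The span of Mxi1 contains the 201 bases of Gm10197, which had 7.76 to 9.78 CPM. No gene of the table overlaps the other 8 network genes.

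Mnt (ENSMUSG00000000282.12, chromosome 11, 74830920 to 74845725, plus strand), the repressor found in most cell types, had 71.0 and 60.6 CPM in E518K, 79.5 and 79.0 CPM in KO and 79.7 and 74.1 CPM in wt. The E518K libraries were the lowest. The fold change of -0.27 ± 0.09 in E518K against KO passed narrowly (edgeR adjusted p = 0.0472). It was lost without E518K clone 15 (-0.14, edgeR adjusted p = 0.273), without KO library 1 or 3 (edgeR adjusted p = 0.21 and 0.192) and when KO entered as 1 summed library (edgeR adjusted p = 0.195). Size factors from DESeq2, upper-quartile factors and no low-count filter also lost it (edgeR adjusted p = 0.0504, 0.0553 and 0.0507). Against wt, E518K stood at -0.22 ± 0.09 (edgeR adjusted p = 0.111), a value that passed without wt clone 16 (-0.28, edgeR adjusted p = 0.0412). KO stood at 0.04 ± 0.09 against wt (edgeR adjusted p = 0.692).

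Mga (ENSMUSG00000033943.15, chromosome 2, 119897228 to 119969581, plus strand) had 146 and 189 CPM in E518K, 214 and 219 CPM in KO and 135 and 166 CPM in wt. KO was higher than every other library, while E518K and wt overlapped. The rise in KO against wt was 0.52 ± 0.14 (edgeR adjusted p = 0.0148), and the call was lost without KO library 1 or 3 or without wt clone 12 (0.54, 0.50 and 0.38; edgeR adjusted p = 0.0531, 0.0648 and 0.0922). Mga in E518K against KO stood at -0.37 ± 0.14 (edgeR adjusted p = 0.0671), and passed without E518K clone 15 at -0.55 (edgeR adjusted p = 0.038). It also passed by DESeq2 on all libraries (-0.37, DESeq2 adjusted p = 0.0244) and by edgeR with only the 4 libraries compared (edgeR adjusted p = 0.0462). Relative to wt, E518K stood at 0.15 ± 0.14 (edgeR adjusted p = 0.455).

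In KO against wt, 5 of the 10 genes rose and 2 fell, against 27.4% and 29.7% of all tested genes, or 57.2% in either direction. With 7 of 10 called, the network stood near that background. The libraries of both groups did not overlap for 9 of the 10, against 81.7% of all genes. E518K against KO had 2 rises and 4 falls among the 10, where 22.0% and 19.8% of all genes rose and fell (41.8% in either direction), with no overlap for 10 of 10 against 80.5%. Relative to wt, E518K had 3 rises and 1 fall, against 11.3% and 12.5% of all genes (23.7% in either direction), with no overlap for 7 of 10 against 62.0%. Without KO library 1, 2 rose and 1 fell in E518K against KO, and without E518K clone 15, 1 rose and 1 fell in E518K against wt. The median log2 fold change of the 10 genes was 0.17 in KO against wt, -0.17 in E518K against KO and 0.07 in E518K against wt, and that of all genes was -0.02 in each.

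**Figure D3:**
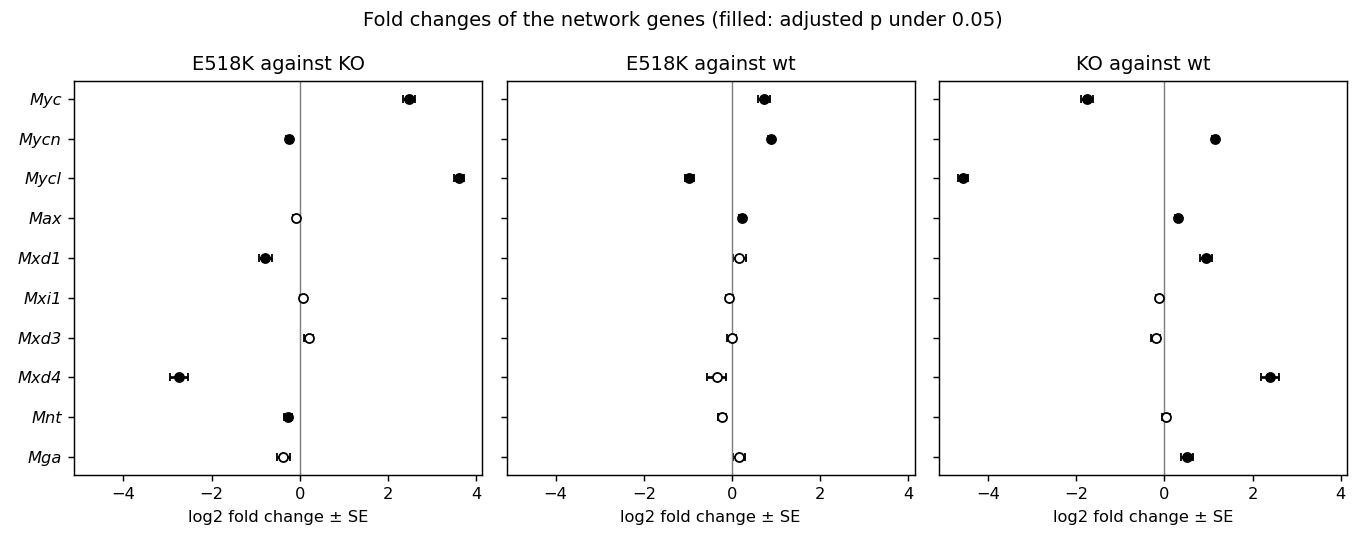
Log2 fold change (horizontal axis) with its SE for each network gene in the 3 comparisons; filled points passed the edgeR test. Mycl, Myc and Mxd4 have the largest changes against KO, at 3.61, 2.48 and -2.74 in E518K, and 5 genes are filled to the right of 0 in KO against wt.

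Ordered by CPM per exonic kb, Mycn, at 47.0 ± 2.5 in E518K and 59.8 ± 1.7 in KO (SD, n = 2), was the most abundant network transcript in both groups, followed by Max at 30.8 ± 0.8 and 35.0 ± 0.2. In wt, Mycn (25.5 ± 1.2) and Max (26.8 ± 0.3) did not differ beyond their spread. Mycl stood at rank 4 of the 10 in wt at 13.5 ± 0.3, at the level of Mxd3 (13.5 ± 1.1), at rank 8 in E518K at 6.85 ± 0.56 and last in KO at 0.600 ± 0.053. Mxd1 and Mxd4 were the lowest of the network in E518K (0.699 ± 0.049 and 0.155 ± 0.007) and in wt (0.633 ± 0.015 and 0.200 ± 0.048), while in KO they had 1.29 ± 0.04 and 1.10 ± 0.03. In KO, Myc (1.80 ± 0.12) stood between Mxi1 (8.56 ± 0.12) and Mxd1. In E518K, Mnt (13.9 ± 1.5) and Mxd3 (13.3 ± 0.4) could not be ordered, nor could Mga (10.6 ± 1.9) and Myc (9.37 ± 1.16). In wt, Mnt (16.3 ± 0.4) stood between Mycn and Mycl, and Mga (9.69 ± 1.71) and Mxi1 (8.84 ± 0.69) could not be ordered, followed by Myc (5.73 ± 0.39). In the authors' TPM, which divide by the whole span, Max with its long introns had rank 4 in E518K and KO and rank 5 in wt, and Mycn had rank 1 in all 3 groups.

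Target genes of MYC were followed through 31 genes of growth and ribosome biogenesis, a list chosen with earlier results of these data known. Relative to KO, 23 of the 31 rose in E518K and 0 fell, where 22.0% and 19.8% of all genes did. Odc1, the first enzyme of polyamine synthesis, had 812 ± 39 CPM in E518K and 378 ± 4 CPM in KO (SD, n = 2), a log2 rise of 1.10 ± 0.06 (SE). The spermidine synthase gene Srm rose by 0.97 ± 0.10, the ribosome assembly factor gene Wdr74 by 0.80 ± 0.06 and the mitochondrial co-chaperonin gene Hspe1 by 0.72 ± 0.06. The median over the list was 0.32, against -0.02 over all genes. Without KO library 1 the list had 15 rises and 0 falls, and with the KO libraries summed also 15 and 0.

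In KO against wt, 16 of the 31 target genes fell and 4 rose, where 29.7% and 27.4% of all genes did, with a median of -0.25. Srm fell by 0.93 ± 0.10 and Odc1 by 0.84 ± 0.06. The genes that rose included Nop58, a core protein of small nucleolar ribonucleoproteins, at 1.01 ± 0.12, and Npm1, encoding the nucleolar chaperone nucleophosmin, at 0.77 ± 0.20. The direction was therefore not shared by all nucleolar genes. Summed over the 31 genes, the level was slightly higher in KO (9540 and 9790 CPM) than in wt (9220 and 9340 CPM), and it was 10900 and 11900 CPM in E518K. Between 15 and 22 of the 31 were called when 1 library was left out. Relative to wt, 13 rose in E518K and 1 fell, where 11.3% and 12.5% of all genes did, with a median of 0.23. Nop58 rose by 0.73 ± 0.12, the nucleolin gene Ncl by 0.46 ± 0.07 and the small-subunit processome gene Wdr43 by 0.45 ± 0.08, and the telomerase gene Tert fell by 0.48 ± 0.14. That count was lower without either E518K clone and without either KO library, and nearly all of it was lost without E518K clone 15. Calls over all genes fell in the same fits. Limma called 2 rises on log2(TPM + 1) and 5 on log2(TPM + 0.1).

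**Figure D4:**
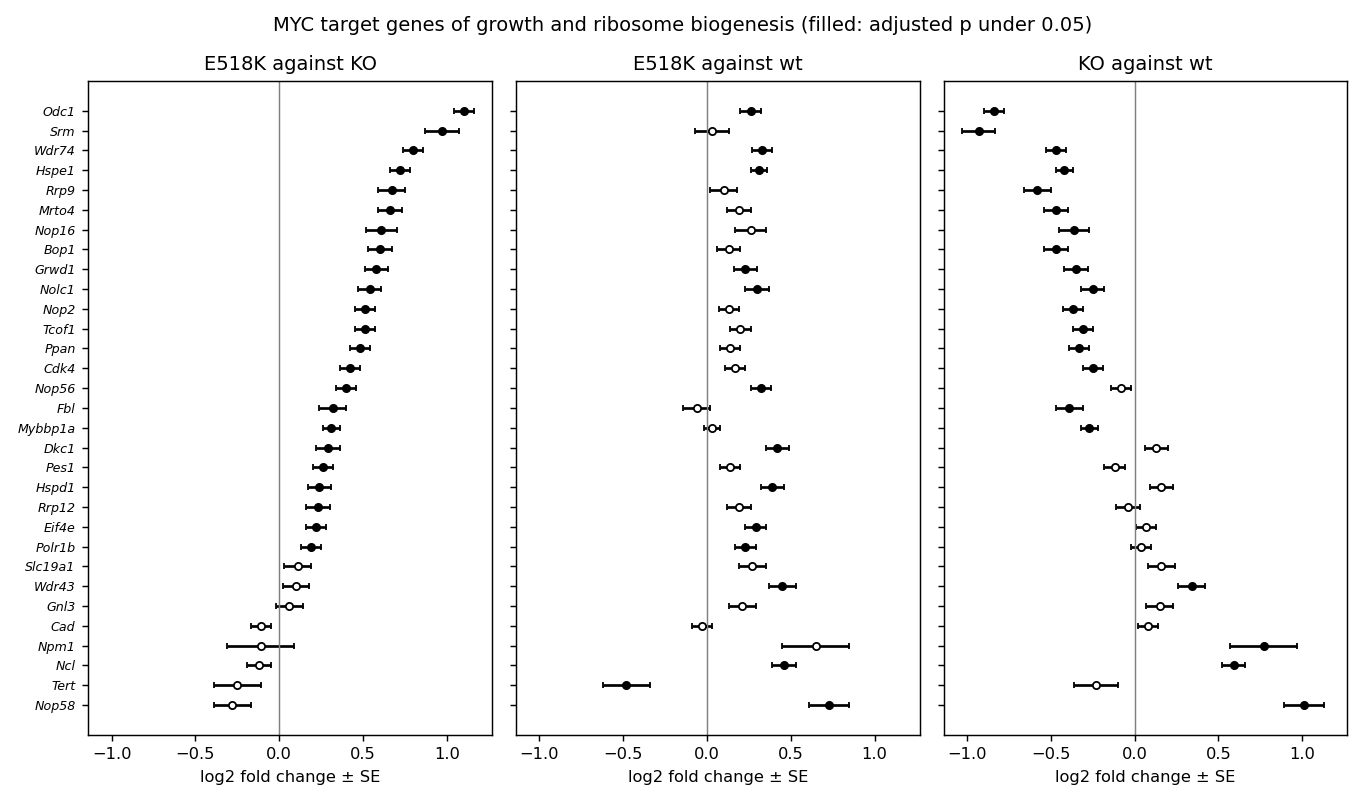
Log2 fold change (horizontal axis) with its SE for 31 MYC target genes of growth and ribosome biogenesis in the 3 comparisons, ordered by E518K against KO; filled points passed the edgeR test. In E518K against KO 23 points are filled, all to the right of 0, and in KO against wt 16 are filled to the left and 4 to the right.

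Co-factors of MYC proteins were followed next. Of 10 partner and co-activator genes, 5 fell and 2 rose in KO against wt, where 29.7% and 27.4% of all genes did, with a median of -0.22. The ATPase gene Ruvbl2 fell by 0.69 ± 0.12, the MYC-binding zinc finger gene Zbtb17 by 0.53 ± 0.09 and the MYC cofactor gene Wdr5 by 0.34 ± 0.05. Without KO library 1, 4 fell and 0 rose. Relative to KO, 6 rose in E518K and 0 fell, where 22.0% and 19.8% of all genes did, Ruvbl2 by 0.58 ± 0.12 and Wdr5 by 0.44 ± 0.05 among them, with 2 rises without E518K clone 8 or either KO library and 3 without E518K clone 15. Ruvbl1 rose in E518K against wt by 0.59 ± 0.08 and Trrap, the scaffold of MYC-bound acetyltransferases, fell by 0.21 ± 0.06, 2 calls of 10 against 23.7% of all genes. A single rise was left without either E518K clone or either KO library, and without wt clone 16 there were 2 rises and 3 falls.

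Of 7 co-repressor genes that serve MXD proteins and MNT, 2 rose and 2 fell in KO against wt, a share close to the 57.2% of all genes called. The deacetylase gene Hdac2 rose by 0.71 ± 0.12 and the nuclear co-repressor gene Ncor1 by 0.33 ± 0.07, whereas the scaffold gene Sin3a fell by 0.34 ± 0.06 and its complex member Sap30 by 0.28 ± 0.09. Without KO library 3, 1 rose and 1 fell. Sap30 and Sin3a rose in E518K against KO by 0.33 ± 0.09 and 0.27 ± 0.06, and Hdac2 fell by 0.41 ± 0.12, 3 calls of 7 against 41.8% of all genes. Without E518K clone 8 or either KO library 0 of the 7 passed there by edgeR, and without either wt clone 3 rose and 2 fell. For E518K against wt, where 23.7% of all genes were called, edgeR called 0 of the 7, with 3 at an unadjusted p under 0.05, DESeq2 called 1 rise and limma 0. By edgeR, 1 rise passed without E518K clone 8 or wt clone 16 and 2 without wt clone 12.

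Genes for the turnover of MYC proteins were followed through 9 genes. In KO against wt 3 rose and 2 fell, a share close to the 57.2% of all genes called. The ubiquitin ligase genes Trim32 and Skp2 rose by 0.90 ± 0.09 and 0.66 ± 0.07, and the mitotic kinase gene Aurka fell by 0.79 ± 0.20. Relative to KO, 1 rose and 3 fell in E518K, also close to the 41.8% of all genes. Those that fell were Trim32, Fbxw7, whose product marks MYC for degradation, and Skp2 (-0.58 ± 0.09, -0.37 ± 0.11 and -0.25 ± 0.06). Without E518K clone 8 or either KO library 1 rose and 1 fell. Skp2 rose in E518K against wt by 0.41 ± 0.07 and Trim32 by 0.32 ± 0.09, 2 calls of 9 against 23.7% of all genes, with 0 calls without E518K clone 15, 1 rise without E518K clone 8 or either KO library, and 3 rises and 1 fall without wt clone 16. MYC protein was not measured here.

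Of 9 partners of MGA in PRC1.6, 3 rose and 0 fell in KO against wt, below the 57.2% of all genes called. Yaf2 rose by 0.67 ± 0.13, the DNA-binding subunit gene E2f6 by 0.44 ± 0.11 and the ubiquitin ligase gene Rnf2 by 0.30 ± 0.08. Without KO library 1 or 3 there was 1 rise, without wt clone 12 there were 5, and without wt clone 16 there were 3 rises and 2 falls. Relative to wt, 4 rose in E518K and 0 fell, where 11.3% and 12.5% of all genes did, among them L3mbtl2 by 0.45 ± 0.07 and Pcgf6, the subunit that sets this complex apart, by 0.36 ± 0.07; without E518K clone 15 there were 0 calls, and without either KO library 2 rises. L3mbtl2 and Pcgf6 also rose in E518K against KO (0.49 ± 0.07 and 0.47 ± 0.07), where Yaf2 and Rybp fell by 0.70 ± 0.13 and 0.25 ± 0.06, 4 calls of 9 against 41.8% of all genes. Without either KO library, 2 rises and 0 falls were left there.

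Of 14 germline genes that PRC1.6 is known to silence, 3 rose and 2 fell in KO against wt, below the 57.2% of all genes called. Several of the 14 had few counts per library, among them Tex101 (4 to 39), Stra8 (2 to 32) and Taf7l (2 to 19). Changes are harder to call at such counts, so the lower share does not show a lack of response. The meiotic chromosome axis gene Hormad1 had 20.5 ± 0.8 CPM in KO and 3.75 ± 2.37 CPM in wt (SD, n = 2) and rose by 2.45 ± 0.38, Tex11 rose by 1.69 ± 0.22 and Ddx4, an RNA helicase of germ cells, by 0.74 ± 0.26. Zcwpw1, a histone reader of meiosis, fell by 1.33 ± 0.18. Without KO library 1 or 3, 2 rose and 1 fell. Relative to KO, 5 fell in E518K and 0 rose, where 19.8% and 22.0% of all genes did, with Meioc, Hormad1, Tex11 and Ddx4 at -1.51 ± 0.33, -1.38 ± 0.36, -1.23 ± 0.22 and -0.99 ± 0.26. A single fall was left there without any 1 of the E518K and KO libraries. Relative to wt, 4 fell in E518K and 0 rose, where 12.5% and 11.3% of all genes did, among them Zcwpw1 by 1.00 ± 0.18 and the synaptonemal complex gene Sycp3 by 0.75 ± 0.17, with 0 calls without either E518K clone, 2 falls without either KO library, and 7 falls and 1 rise without wt clone 12.

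The MLX arm of the network, which senses sugars, had 1 gene of 3 that passed in each comparison with wt, where 23.7% of all genes were called in E518K and 57.2% in KO. Mlxipl, which encodes the carbohydrate-responsive factor ChREBP, had 0.527 and 0.645 CPM in E518K, 0.362 and 0.480 CPM in KO and 1.96 and 2.11 CPM in wt. Its counts were 38 and 47 in E518K, 28 and 37 in KO and 142 and 156 in wt, so both wt libraries stood apart. Relative to wt it fell by 1.79 ± 0.29 in E518K (edgeR adjusted p = 0.00727), and it fell by 2.27 ± 0.30 in KO (edgeR adjusted p = 0.000745); without E518K clone 8 or 15 the arm had 0 calls in E518K against wt. Mlx, its dimer partner, and Mlxip, which encodes MondoA, passed in 0 of the 3 comparisons, with fold changes from 0.00 to 0.22. DESeq2 called 2 of the 3 in E518K against wt, 1 higher and 1 lower. With 1 library left out, a second gene of the arm rose in KO against wt without wt clone 12 and in E518K against wt without wt clone 16.

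Of 10 genes known to act upstream of MYC genes, 2 rose and 3 fell in KO against wt, near the 57.2% of all genes called. Lin28b, a blocker of let-7 maturation, rose by 1.93 ± 0.33, whereas its paralog Lin28a, Klf4 and E2f1 fell (-6.37 ± 0.24, -1.07 ± 0.16 and -0.51 ± 0.07). Lin28a rose in E518K against KO by 6.41 ± 0.24, and Lin28b and E2f2 fell by 0.97 ± 0.32 and 0.45 ± 0.11, 3 calls of 10 against 41.8% of all genes. A single rise was left there without any 1 of the E518K and KO libraries, and without either wt clone 3 rose and 2 fell. Of the 10, 2 rose and 3 fell in E518K against wt, where 11.3% and 12.5% of all genes did, with Tcf7l1, a repressor in the Wnt pathway, higher by 0.42 ± 0.09 and Klf4, E2f2 and E2f1 lower (-0.61 ± 0.16, -0.53 ± 0.11 and -0.52 ± 0.07). Without E518K clone 15 there were 0 calls, without E518K clone 8 there was 1 fall, and without either KO library 1 rose and 1 fell.

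Genes with the pattern most like each MYC gene were taken by the highest Pearson correlation of log2 CPM over the 6 libraries, among the 12162 genes whose log2 CPM averaged 1 or more. For Mycl these were Ccnk, Lmnb2 and Trpc2 (r = 0.9995, 0.9993 and 0.9988), and for Myc they were Rpl9, Ssr2 and Gtf2h5 (r = 0.9993, 0.9973 and 0.9971). For Mycn they were Chpf2, Nlrp12 and Ak1 (r = 0.9986, 0.9981 and 0.9972). Nlrp12 had 200 and 191 CPM in E518K, 404 and 368 CPM in KO and 12.8 and 14.0 CPM in wt, a far wider range than Mycn. The span of Nlrp12 holds 6 annotated hairpins of the miR-290 cluster, 5 of them on the opposite strand, so reads of the cluster's primary transcript may not be told apart from those of Nlrp12. These correlations describe 6 points that fall into 3 groups and share the libraries. They do not measure the size of a change. In KO against wt, Ccnk, Lmnb2 and Trpc2 had log2 fold changes of -0.59, -0.70 and -0.71, where Mycl had -4.57. Rpl9, Ssr2 and Gtf2h5 had -0.55, -0.27 and -0.50, where Myc had -1.76.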

How the data were processed

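The authors deposited raw counts of reads per gene symbol, 1 column per library, and TPM. Judged from the file headers and values, the deposited TPM come from the same counts after division by a gene length. The submitters' processing notes name STAR, bedtools and the build GRCm38.p6, without settings. The length that TPM imply lay within 5% of the whole genomic span in 98.4% of 14694 genes and of the summed exons in 4.23%, so TPM were divided by the span. Whether intron reads were counted is not known from the sources used here.

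edgeR 4.0.16 in R 4.3.3 was run on the counts with TMM factors, its expression filter (minimum count 10) and robust quasi-likelihood F tests. The model had group alone, for 6 libraries, with 3 residual degrees of freedom, and KO libraries therefore also set the error of E518K against wt. The common biological coefficient of variation was 11.9%. Benjamini-Hochberg adjustment ran over 16498 genes with a threshold of 0.05, and "rose", "fell", "called" and "passed" refer to it. SE was taken as the absolute log2 fold change over the square root of F. CPM carry TMM factors unless stated. Between replicates, chi-square over its degrees of freedom came to 21.6 in E518K, 3.55 in KO and 51.4 in wt, above sampling noise in each group. The procedure was also run on simulated counts with few changed genes and the same spread in all libraries. Those settings differ from these data, so that run does not test the scaling or the error used here. There were 14 repeated symbols, kept apart. Alternatives were DESeq2 1.42.0, limma 3.58.1 on log2 TPM, other scaling factors, no filter, fewer libraries, summed KO libraries and each library left out.

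Gene positions, exons and 3′ UTRs are those of GENCODE M21 (GRCm38). Exonic length is the union of annotated exons, and levels per exonic kb would be too high for genes with intron reads if those were counted. The network genes and lists were chosen with earlier results of these data known. Named were all 10 network genes, Dgcr8, genes overlapping them, the 3 genes most correlated with each MYC gene, every gene of a 3-gene list, and from longer lists up to 4 called genes per comparison by size of change, where the mean log2 CPM reached 1. Some genes of these lists are counted but their values are not reported here.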

Additional observations from a re-analysis of the deposited data

How the results depend on the processing

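No paired analysis was possible because the groups share no replicate number. Over 14 alternatives for each of the 10 network genes, direction and side of the threshold were kept in 117 values of E518K against KO, 121 of E518K against wt and 127 of KO against wt. The calls of Mycl and Mycn against wt in both E518K and KO, those of Myc, Mxd1 and Mxd4 in KO against wt, and those of Myc, Mycl and Mxd4 in E518K against KO held in all of them. A call was lost in 13 values of E518K against KO, 11 of E518K against wt and 8 of KO against wt. Those against wt fell on Myc and Max in E518K and on Max and Mga in KO, and not all are listed above. Values that changed sign were all uncalled. For Mxd3 in E518K against wt, -0.01 became 0.01 with DESeq2 size factors, 0 with DESeq2 and with only the 4 libraries compared, 0.04 without E518K clone 15 and 0.11 without wt clone 12. It was -0.11 without wt clone 16. For Mnt in KO against wt, 0.04 became -0.01 with upper-quartile factors and without wt clone 16. Mxi1 in E518K against KO was -0.04 by limma on TPM with either pseudocount, and Mga in E518K against wt was -0.03 without E518K clone 15 and 0.33 without clone 8. The cause was not tested.

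With only the 4 libraries compared, E518K against wt had 1999 calls over all genes, against 3917. With the KO libraries summed, calls over all genes were 3267 in E518K against KO, 1909 in E518K against wt and 6163 in KO against wt, against 6902, 3917 and 9429, and 3 network genes passed in E518K against KO in place of 6. With 1 library left out, calls over all genes ranged from 3285 to 9482 in E518K against KO, from 644 to 6987 in E518K against wt and from 6084 to 10958 in KO against wt. Calls in the network then ranged from 3 to 7, from 2 to 5 and from 5 to 8 in the same order. A group left with 1 library was assumed to vary like the others. The counts of the gene lists with a library left out are to be read beside the ranges over all genes. Among calls of E518K against wt, 47.5% were higher, against 37.5% with upper-quartile factors and 26.8% and 28.3% by limma on TPM with pseudocounts of 1 and 0.1. In E518K against KO the share was 52.7%, against 40.7% and 42.3% by limma. Mxd4 had the fewest counts of the network, 95 in E518K clone 15, and with 2 libraries per group the spread rests on 3 residual degrees of freedom.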
